A study of Mus musculus with 20 samples.

Results

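Malignant mesothelioma (MM) lines m5, m12 and m60, which the study's histology summary gives as biphasic, were compared between 3D culture as MM organoids and 2D culture as adherent cells. The members are the 6 libraries labelled 2D and 3D for these 3 lines, of 14 libraries with a column in the deposited table and 20 samples listed in the series, and all values below come from them unless the other 4 lines (m28, m54, m67 and m107) are named. Each line came from 1 p53+/- mouse on a C57/BL6 background, a male injected when young with crocidolite, an asbestos fibre, into the peritoneum. So both cultures of all 3 lines come from mice with heterozygous loss of p53 and crocidolite exposure, and there was 1 library per line and culture. This genotype is that of the mouse. The study reports p53 protein as undetectable in several of its MM cell lines, so the cultured cells need not be alike in p53. By the labels m28 and m54 share this genotype and exposure, while m67 is WT with crocidolite and m107 is p53+/- with carbon nanotube. The labels give medium with 10% fetal bovine serum for both cultures. The study's methods describe organoid cells plated on set Matrigel, a basement membrane extract, in a medium with EGF, R-spondin1, Noggin and the ROCK inhibitor Y-27632, so that 3D against 2D stands for the matrix, the shape and the medium together, and these cannot be told apart. The histology is the study's and is not in the labels, and another passage of the study calls the m12 organoid epithelioid and the m5 organoid sarcomatoid.

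Cells spread on plastic build actin stress fibres, and polymerised actin frees the cofactor MRTF to join serum response factor (SRF) on the genes of the contractile cytoskeleton. ROCK, the kinase that Y-27632 blocks, drives the contraction of these fibres. Noggin binds and blocks bone morphogenetic proteins (BMP), and R-spondin strengthens Wnt signalling through the receptors Lgr4 to Lgr6. Low oxygen stabilises the HIF factors, which raise glycolytic enzymes, and low growth factor signalling lets FOXO factors into the nucleus. Mesothelial tumours of the biphasic type hold epithelioid and spindle-shaped, mesenchymal parts.

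Total reads recovered from the table ran from 15772888 in 2D m60 to 53911770 in 3D m12, and a gene with no read could still stand at up to 0.0557 to 0.190 CPM, a unit that puts the reads of every library on 1 common total. This limit is the value of 3 reads and covers counting error only. The cultures of m60 were most alike of the 3 pairs. Across 11796 genes, the deviations of a 2D and a 3D library from their culture's mean correlated at 0.43 for m60, 0.04 for m5 and -0.11 for m12, whereas 2D m5 with 3D m12 gave 0.28 and 2D m12 with 3D m5 gave 0.15. Reads of 4 Y-linked genes numbered 12572 in 2D m5 and 0 in 3D m5, 0 in 2D m12 and 10773 in 3D m12, and 1239 and 2125 in the cultures of m60. The libraries labelled m5 and m12 thus did not match their partners, and they are called here by their labels. The mean difference over the 3 lines, and the counts of genes whose organoids lay outside the range of the 2D cultures, do not depend on which organoid is set against which 2D culture, while every value for m5 or m12 alone does. Standard errors and p-values of fits with the line as a block depend on it too. So do all counts, rankings and correlations built on the differences of single lines.

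The organoid labelled m12 also stood apart by its cell type markers. Its 11 glandular epithelial markers summed to 5136 CPM against 19.1 to 160.1 CPM in the other 5 libraries, with Epcam at 430.1 and Cdh1 at 1062 CPM, and all 11 were at 1 CPM or more. Its 10 mesenchymal markers summed to 1.89 CPM against 7584 to 14395 CPM, and Vim, which codes for the filament protein vimentin, stood at 0.668 CPM. The 10 mesothelial markers summed to 7740 CPM there through keratins and Msln, while Wt1, a transcription factor of mesothelium, stood at 0.0371 CPM and Upk1b at 0. The other 5 libraries held Wt1 between 149 and 225 CPM and 9 of the 10 mesothelial markers at 1 CPM or more. Calb2, which codes for calretinin, was at or below 0.0198 CPM in all 6. Macrophage and leukocyte markers summed to 2.77 to 47.5 CPM and endothelial markers to 0.349 to 13.5 CPM, and the part of these cells in the results was not tested. In such bulk libraries fewer cells of a type and less RNA per cell cannot be told apart.

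**Figure D1:**
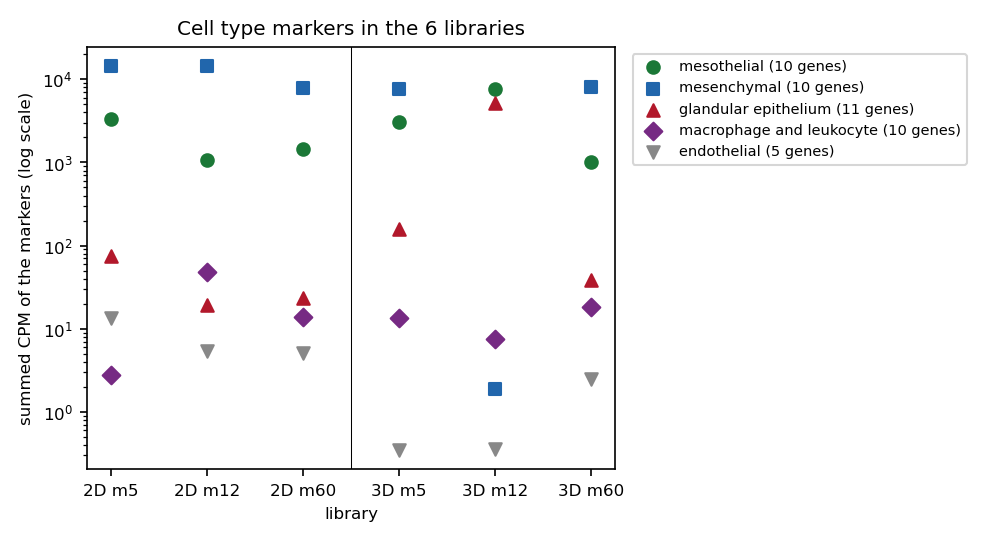
Summed CPM (log axis) of 5 marker lists in the 3 2D cultures and the 3 organoids, 1 point per list and library. In 3D m12 the mesenchymal sum is 1.89 CPM and the glandular sum 5136 CPM, while in the other 5 libraries the mesenchymal sum is the highest of the 5.

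No gene passed the test of 3D against 2D with the line as a block (limma on log2(CPM + 1), 11796 genes, Benjamini-Hochberg adjustment, smallest adjusted p = 0.406). At an unadjusted p under 0.05 there were 725 genes higher (6.15%) and 642 lower (5.44%) in 3D. Without the block 0 genes passed (smallest adjusted p = 0.0702), edgeR on the recovered reads called 0 (smallest adjusted p = 0.502), and DESeq2 on the same reads called 1013 genes higher (8.59% of those tested) and 1127 lower (9.55%). Every difference given below is therefore a measured difference that did not pass limma's test. A count that needs no pairing is used beside it: genes with all 3 organoids above all 3 2D cultures numbered 1300 (11.0% of those tested), and genes with all 3 organoids below numbered 1077 (9.13%). An exact permutation test of 3 libraries against 3 cannot go below a two-sided p of 0.1 for any such gene. With 1 line left out such separation is easier, and 21.0% to 23.8% of genes lay above and 18.0% to 21.9% below. At least 2-fold in all 3 lines, 258 genes (2.19%) were higher and 130 (1.10%) lower. The gene by gene differences of the lines agreed little, with a correlation across genes of 0.06 between m5 and m12, 0.10 between m12 and m60 and 0.38 between m5 and m60, and genes are not independent replicates.

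Among the genes with the largest differences of 1 direction in all 3 lines, contractile genes (Tagln, Acta2, Actg2) were lower in the organoids, and detoxifying enzymes (Aldh3a1, Gsta3, Gstm7) were higher. Tagln, which codes for the actin-binding protein transgelin, stood at 1162, 544 and 125 CPM in 2D m5, m12 and m60 and at 8.69, 0.185 and 1.73 CPM in the organoids. Every organoid lay below every 2D culture, with a mean log2 difference of -7.10 (SE 0.70, n = 3 lines). Here and below SE is limma's moderated standard error, whose variance borrows from all tested genes. It is not the spread of a gene's own 3 line differences, which can be wider or narrower. Ddit4, which codes for an mTORC1 inhibitor raised by low oxygen and by stress, stood at 26.0, 21.9 and 26.6 CPM in 2D and at 192, 193 and 175 CPM in 3D, in the same line order used throughout. Its 3 lines gave nearly the same difference, 2.86 (SE 0.23). Mgat3, the enzyme that adds the bisecting N-acetylglucosamine to N-glycans, stood at 23.6, 39.1 and 48.3 CPM in 2D and 150.1, 218 and 281 CPM in 3D, a difference of 2.53 (SE 0.22). Selenbp1, a selenium-binding protein, stood at 0.0594, 1.37 and 3.04 CPM in 2D and 31.3, 305 and 70.5 CPM in 3D, and Aqp1, the water channel aquaporin 1, at 2.89, 17.4 and 7.04 CPM and 58.0, 364 and 62.2 CPM. In both genes no organoid overlapped the 2D cultures.

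Among the genes lower in 3D, Lrp2, the endocytic receptor megalin, stood at 440.3, 34.7 and 64.4 CPM in 2D and at 8.26, 0 and 2.17 CPM in 3D (log2 difference -5.03, SE 0.39). Krt14, a keratin of basal epithelium, stood at 619, 43.0 and 26.3 CPM in 2D and 5.04, 0.0371 and 2.79 CPM in 3D. Ptx3, a soluble pattern recognition protein, stood at 205, 157 and 166 CPM in 2D and 10.9, 0 and 20.4 CPM in 3D. These 3 genes separated the cultures in all libraries. Notch3, a Notch receptor, was separated the other way, with 1.64, 2.37 and 0.444 CPM in 2D and 73.0, 16 and 10.4 CPM in 3D.

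**Figure D2:**
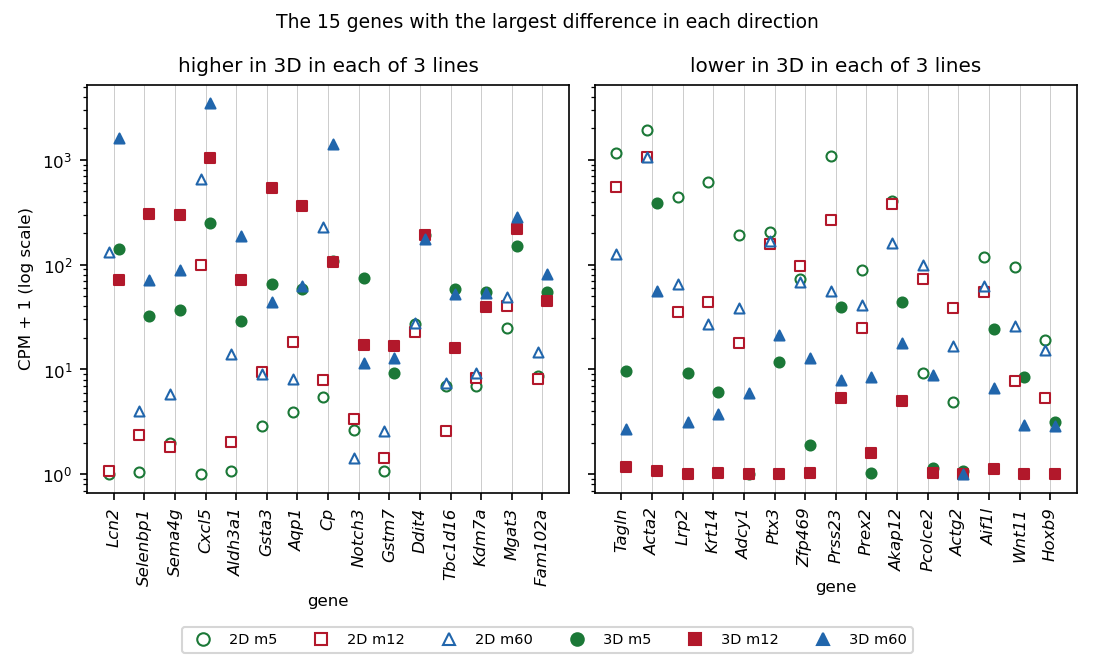
CPM + 1 (log axis) of the 15 genes with the largest difference in 1 direction over the 3 lines, higher in 3D on the left and lower on the right, with open symbols for 2D and filled ones for 3D. The 3 filled symbols of Tagln lie between 0.185 and 8.69 CPM and its open ones between 125 and 1162 CPM, whereas Cp, Cxcl5, Lcn2 and Wnt11 overlap between cultures.

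The actin cytoskeleton and SRF target list held 30 tested genes. Of these, 20 (66.7%, against 9.13% of all genes) had all 3 organoids below all 3 2D cultures and 0 had them above (11.0% of all genes). Without m12 the count was 21 of 30, beside 21.9% of all genes. It was 23 without m5, beside 19.3% of all genes, and 23 without m60, beside 18.0%. The median log2 difference of the list was -1.02 in m5, -1.96 in m12 and -1.27 in m60, beside medians of all tested genes of 0.09, 0.02 and -0.01. In m5, m12 and m60, 26, 26 and 28 of the 30 genes were lower in 3D, against 45.3%, 49.1% and 50.3% of all tested genes. Cnn2, a calponin that binds actin, stood at 707, 441 and 314 CPM in 2D and 181, 110.1 and 47.9 CPM in 3D (-2.21, SE 0.26). Vcl, which codes for vinculin of focal adhesions, stood at 677, 429 and 542 CPM in 2D and 209.9, 174 and 233 CPM in 3D (-1.40, SE 0.24). Zyx, which codes for zyxin of the same structures, stood at 2472, 1073 and 467 CPM and 273, 80.7 and 192 CPM. Srf itself was lower as well, at 164, 232 and 116 CPM in 2D and 76.5, 59.7 and 43.7 CPM in 3D (-1.48, SE 0.27). Acta2, smooth muscle actin, stood at 1941, 1052 and 1069 CPM in 2D and 385, 0.0742 and 54.7 CPM in 3D, the organoids differing widely among themselves. Tagln2 and Csrp2 were not lower in every line, with 614, 667 and 567 CPM of Tagln2 in 2D and 775, 731 and 474 CPM in 3D, and 13.2, 71.9 and 15.6 CPM of Csrp2 in 2D and 30.5, 140.2 and 14.4 CPM in 3D. The list is no independent evidence of a direction, since it was chosen with results of these data known.

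**Figure D3:**
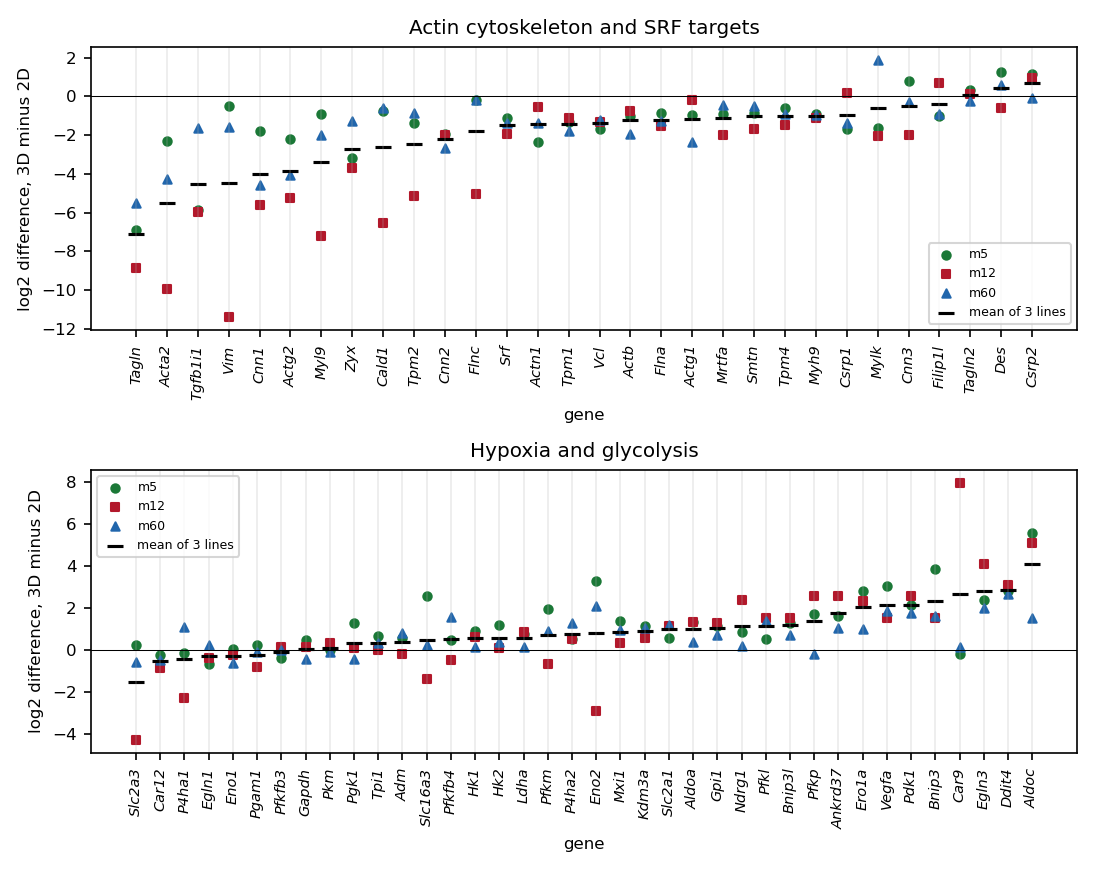
Log2 difference, 3D minus 2D, of each tested gene of the actin and SRF list (30 genes) and of the hypoxia and glycolysis list (38 genes) in lines m5, m12 and m60, with the mean as a bar. In the upper panel 26, 26 and 28 genes lie under 0 in m5, m12 and m60, and Vim, Acta2 and Tagln carry the lowest m12 values.

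The promoters of this list were searched for the CArG box, the letters to which SRF binds. In the 250 bases before the canonical start (GRCm39, GENCODE annotation), 6 of 30 list genes (20.0%) held a CArG box against 137 of 11789 tested genes (1.16%), counted on both strands. The match is a description and not a bound site. The list was drawn up to hold SRF targets, so its higher share can follow from membership and says nothing of these cultures. Tagln and Srf are shown because they held a match and differed in all 3 lines, with the CArG boxes in capitals. Tagln lies on the minus strand at chr9:45840909-45847404, its window at chr9:45847405-45847654 holding 1 box that begins 64 bases before the start. Srf lies on the minus strand at chr17:46857767-46867119, its window at chr17:46867120-46867369 holding 2 boxes that begin 51 and 31 bases before the start. No annotated exon lies in either window.
Tagln: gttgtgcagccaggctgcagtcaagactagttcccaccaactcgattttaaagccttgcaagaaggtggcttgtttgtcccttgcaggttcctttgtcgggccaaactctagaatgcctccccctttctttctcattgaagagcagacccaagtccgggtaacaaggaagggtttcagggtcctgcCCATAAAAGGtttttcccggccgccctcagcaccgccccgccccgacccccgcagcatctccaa
Srf: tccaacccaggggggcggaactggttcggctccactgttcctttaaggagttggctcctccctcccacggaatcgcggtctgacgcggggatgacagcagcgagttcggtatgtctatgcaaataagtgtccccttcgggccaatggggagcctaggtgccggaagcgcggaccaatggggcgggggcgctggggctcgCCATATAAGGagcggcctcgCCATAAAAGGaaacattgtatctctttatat

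The next list joins targets of YAP and TAZ, the cofactors that follow cell spreading and tension, with genes of the Hippo pathway that restrains them. Of 36 tested genes, 4 had all organoids below the 2D cultures (11.1%, near the 9.13% of all genes) and 0 above (11.0% of all genes). In all 3 lines 13 of the 36 were lower and 3 higher, beside 2144 lower and 2472 higher of all 11796 tested genes. The median difference was -0.62 in m5, -0.52 in m12 and -0.42 in m60. With 1 line left out the separated count was 11 to 15, beside 18.0% to 21.9% of all genes. Wwc2, a scaffold of the Hippo pathway, stood at 726, 246 and 196 CPM in 2D and 245, 102 and 67.5 CPM in 3D (-1.45, SE 0.22). The ranges of both cultures met, since 3D m5 lay within the 2D range, yet each line was lower. Lats2, a Hippo kinase, showed the same with 90.4, 34.8 and 38.2 CPM in 2D and 44.0, 15.5 and 18.0 CPM in 3D. Amotl2 stood at 1012, 339 and 334 CPM in 2D and 379.7, 187 and 32.2 CPM in 3D. Of Ccn1 and Ccn2, secreted matrix proteins and common readouts of YAP, Ccn1 had every organoid below every 2D culture, with 1313, 582 and 1096 CPM in 2D and 483, 263 and 32.0 CPM in 3D. Ccn2 diverged by line, with 2447, 167 and 258 CPM in 2D and 66.9, 364 and 4.33 CPM in 3D, where 3D m12 alone lay above its partner. Yap1 itself stood at 246, 207 and 239 CPM in 2D and 3989, 135 and 214 CPM in 3D, the organoid labelled m5 lying far above the other 5 libraries.

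Of the TGF-beta response list, 6 of 20 tested genes (30.0%, against 9.13% of all genes) had all organoids below and 1 (5.0%, against 11.0%) above. Its lines parted, with medians of -0.93 in m5, -2.16 in m12 and 0.23 in m60, where 11 of the 20 genes were higher in 3D. Of the BMP list 5 of 21 (23.8%, against 9.13%) lay below and 0 above (11.0% of all genes), with medians of -0.60 in m5, -2.79 in m12 and -0.89 in m60. Both counts were 10 without m60, beside 18.0% of all genes, and 7 without m12, beside 21.9%. Skil, which codes for SnoN, a feedback repressor of TGF-beta signalling, stood at 109, 50.7 and 108 CPM in 2D and 55.7, 29.9 and 48.5 CPM in 3D. Smad6, which restrains BMP receptors and is raised by BMP, stood at 77.4, 88.4 and 54.1 CPM in 2D and 54, 12 and 13.5 CPM in 3D (-1.74, SE 0.52). Atoh8, a further gene raised by BMP, stood at 53.6, 85.9 and 117 CPM and 39.2, 9.48 and 31.1 CPM. All 3 genes were lower in 3D in each line, and all but Skil separated the cultures. Smad6 did so only just, with 54 CPM in 3D m5 beside 54.1 CPM in 2D m60. With TMM scaling 4 genes of the BMP list and 6 of the TGF-beta list lay below, beside 1183 of all 11796 tested genes. With quantile normalization 6 and 5 did, beside 1115 of all tested genes. In the Wnt list, which R-spondin would touch, 1 of 28 genes (3.57%, against 11.0% of all genes) was separated upward and 3 (10.7%, against 9.13%) downward. Lgr5, a receptor for R-spondin and a Wnt target, stood at 0, 0.831 and 1.08 CPM in 2D and 1.10, 14.4 and 10.3 CPM in 3D, the organoid of m5 only just above the 2D cultures. Axin2, a feedback inhibitor and the usual Wnt readout, stood at 1.92, 2.86 and 5.39 CPM in 2D and 3.65, 21.4 and 9.82 CPM in 3D and overlapped.

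Genes of DNA replication and mitosis had a median difference under 0 in all 3 lines, lowest in m60 and nearest 0 in m12. Of 40 tested genes, 19 (47.5%, against 9.13% of all genes) had all 3 organoids below all 3 2D cultures and 0 above (11.0% of all genes). The median difference was -1.24 in m5, -0.36 in m12 and -2.43 in m60. In m5 and m60 all 40 genes were lower in 3D, and in m12 30 were lower and 10 higher. Without m12 the count was 38 of 40, beside 21.9% of all genes. It was 22 without m5, beside 19.3% of all genes, and 25 without m60, beside 18.0%. Rrm2, a subunit of ribonucleotide reductase, stood at 233, 267 and 228 CPM in 2D and 76.2, 115 and 19.1 CPM in 3D (-2.11, SE 0.53). Mcm4, a subunit of the replicative helicase, stood at 238, 442 and 301 CPM in 2D and 142, 149 and 106 CPM in 3D (-1.27, SE 0.28). Foxm1, the transcription factor of the G2 phase, stood at 221, 225 and 147 CPM in 2D and 70.5, 104 and 25.3 CPM in 3D. Kif20a, a kinesin of cytokinesis, stood at 227, 325 and 169 CPM and 73.1, 139 and 22.9 CPM, and Ccne2, cyclin E2, at 49.1, 25.6 and 35.8 CPM and 10.9, 10.3 and 6.55 CPM. For each of these genes the 3D m60 library was the lowest of the 6.

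In the other 4 lines the list's medians were -0.36 in m28, about that of m12, -0.05 in m54, 0.06 in m67 and 0.49 in m107. The difference of the culture effect between the 3 lines and the other 4, tested by an interaction term over all 14 libraries, passed for 0 of 11796 genes (limma, smallest adjusted p = 0.696), with 179 genes (1.52%) more positive and 596 (5.05%) more negative in the 3 lines at an unadjusted p under 0.05. By the values alone, 18 of the 40 replication genes had all 3 line differences below those of the other 4 lines, against 671 of all tested genes (5.69%), and 0 had them above, against 2.23%. Of the 40 genes 22 were more negative at an unadjusted p under 0.05. The 10 genes with the smallest unadjusted p, among those with a mean of at least 5 CPM over the 14 libraries, were all more negative in the 3 lines. Chaf1a, a histone chaperone of replicating DNA, stood at 179, 259.9 and 156 CPM in 2D and 82.8, 101 and 41.9 CPM in 3D of the 3 lines (-1.45, SE 0.26), against log2 differences of -0.01 to 0.76 in the other 4. Uhrf1, which carries DNA methylation through replication, stood at 209, 345 and 214 CPM and 110.2, 146 and 50.7 CPM, against 0.27 to 1.15. Timeless, a fork protection protein, stood at 88.9, 109.7 and 84.0 CPM and 48.4, 62.5 and 27.6 CPM, against 0.43 to 1.00. Tcf19, Hspa14, Fam111a, Exosc10, Slfn9 and Prim1 were also among them. The sets differ in more than the histology of the study's summary, which is sarcomatoid for m28, m54 and m107 and was not determined for m67. Line m67 also differs in genotype and m107 in the fibre injected, and macrophage and leukocyte markers summed to 2244 CPM in 3D m67, with all 10 at 1 CPM or more, against 2.77 to 47.5 CPM in the other 13 libraries. Without m67, 19 of the 40 genes lay below, against 7.40% of all genes, and against m28 and m54 alone 19 again, with 10.9% of all genes. The parts of these differences, and of the match of m5 and m12 to a partner, cannot be told apart.

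**Figure D4:**
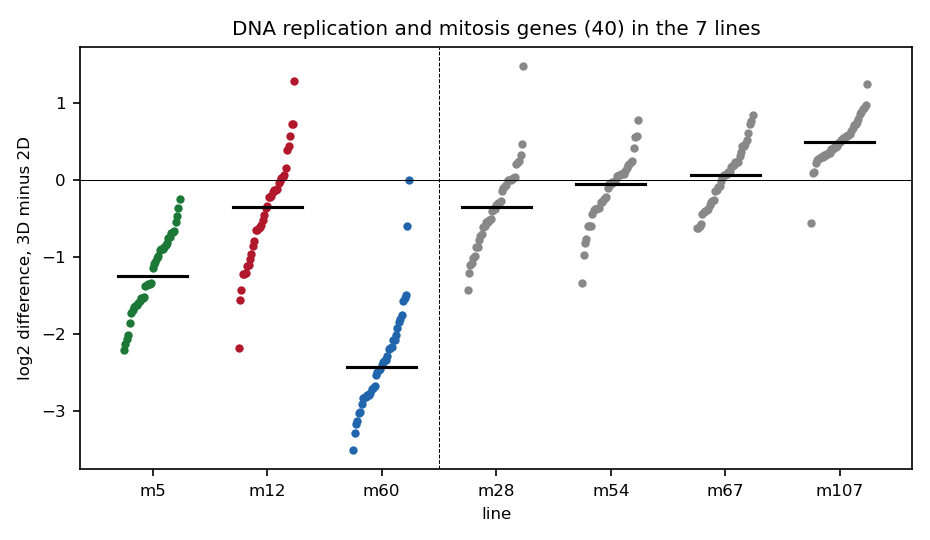
Log2 difference, 3D minus 2D, of the 40 tested genes of DNA replication and mitosis in each of 7 lines, sorted within a line, with the median as a bar. The medians are -1.24, -0.36 and -2.43 in m5, m12 and m60 and between -0.36 and 0.49 in the other 4 lines.

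The letters TTTNNCGC, searched on both strands as a form of the E2F motif, stood in the 250 bases before the start of 4 of the 40 genes (10.0%) against 7.0% of all tested genes, so their share was near that of all genes. Mcm4 is shown as a member with matches, in capitals, that begin 224 and 78 bases before its start. Its gene lies on the minus strand at chr16:15440211-15455264 and the window at chr16:15455265-15455514, clear of annotated exons.
Mcm4: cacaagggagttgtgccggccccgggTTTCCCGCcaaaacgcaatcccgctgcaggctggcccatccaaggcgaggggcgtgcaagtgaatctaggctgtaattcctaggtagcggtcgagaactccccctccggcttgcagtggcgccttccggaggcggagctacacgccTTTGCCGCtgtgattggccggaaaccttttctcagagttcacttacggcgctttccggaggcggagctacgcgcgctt

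Hypoxia and glycolysis genes stood higher in the organoids. Of 38 tested genes, 17 (44.7%, against 11.0% of all genes) had all 3 organoids above all 3 2D cultures and 0 below (9.13% of all genes). With 1 line left out 18 to 23 lay above, beside 21.0% to 23.8% of all genes. The list median was 1.03 in m5, 0.54 in m12 and 0.71 in m60. Egln3, a prolyl hydroxylase that HIF induces and that acts back on HIF, stood at 28.2, 21.2 and 15.6 CPM in 2D and 150.3, 373 and 66.2 CPM in 3D (2.82, SE 0.49). Pdk1, the kinase that turns pyruvate away from mitochondria, stood at 34.6, 26.1 and 45.6 CPM in 2D and 156, 159.7 and 158 CPM in 3D (2.16, SE 0.27), and the 3 organoids lay close together. Vegfa, the growth factor for vessels, stood at 83.2, 125 and 227 CPM in 2D and 699.5, 365 and 823 CPM in 3D (2.15, SE 0.38). Ero1a, an oxidase of protein folding that HIF also raises, stood at 72.2, 59.0 and 115 CPM and 504, 305 and 229.8 CPM. Aldoc, aldolase C, stood at 0.832, 1.39 and 6.28 CPM in 2D and 87.4, 80.7 and 20.2 CPM in 3D. Some enzymes of core glycolysis did not share this. Eno1 stood at 1504, 2297 and 1362 CPM in 2D and 1551, 1923 and 892 CPM in 3D and Pgam1 at 239.8, 296 and 392 CPM and 283, 169 and 362 CPM, and Slc2a3, a glucose transporter, at 75.1, 20.4 and 1.97 CPM and 89.9, 0.0927 and 1.01 CPM. The letters ACGTG, the core to which HIF binds, stood in the 250-base window of 16 of the 38 genes (42.1%) against 21.5% of all tested genes, on both strands. The list was drawn up to hold hypoxia genes, so this share too can follow from membership. Egln3 is shown with its match in capitals, 216 bases before the start. The gene lies on the minus strand at chr12:54225767-54250673 and the window at chr12:54250674-54250923, with no annotated exon inside.
Egln3: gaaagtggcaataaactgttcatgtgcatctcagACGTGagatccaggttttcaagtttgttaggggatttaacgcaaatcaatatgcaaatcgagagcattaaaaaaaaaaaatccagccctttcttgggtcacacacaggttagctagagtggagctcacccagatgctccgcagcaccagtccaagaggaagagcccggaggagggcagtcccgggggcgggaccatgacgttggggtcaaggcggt

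As a list, genes that rise when growth factors are withdrawn, FOXO targets among them, also stood higher. Of 31 tested genes 14 (45.2%, against 11.0% of all genes) had all organoids above and 0 below (9.13% of all genes). The medians were 1.27 in m5, 0.81 in m12 and 0.69 in m60. With 1 line left out 16 to 19 lay above, beside 21.0% to 23.8% of all genes. Insr, the insulin receptor, stood at 30.7, 35.1 and 36.6 CPM in 2D and 78.1, 62.2 and 86.5 CPM in 3D (1.12, SE 0.26). Sesn3, a sestrin that restrains mTORC1, stood at 40.2, 16.9 and 31.8 CPM and 89.5, 61.3 and 193 CPM. Ccng2, a cyclin of resting cells, stood at 16.8, 18.3 and 33.0 CPM and 78.5, 54.2 and 69.5 CPM, and Tsc22d3, which is also a glucocorticoid target, at 8.30, 15.2 and 11.4 CPM and 80.8, 39.6 and 38.8 CPM. Not every member rose. In m5, m12 and m60, 5, 10 and 6 of the 31 genes were lower in 3D, against 45.3%, 49.1% and 50.3% of all tested genes. Irs2, a classical FOXO target, was lower in m12 and m60, with 147, 66.5 and 79.6 CPM in 2D and 181, 53.1 and 52.1 CPM in 3D. Ddit4 belongs to this list and to the hypoxia list. In the IGF list, Igf2r, which clears IGF2, stood at 113, 178 and 282 CPM in 2D and 266, 309 and 726 CPM in 3D (1.13, SE 0.24), whereas Igf1 stood at 48.4, 16.2 and 11.7 CPM and 1.37, 0 and 8.91 CPM and Igfbp2, an IGF-binding protein, at 305, 5.06 and 3.93 CPM and 0.0536, 0 and 0.241 CPM. Of the 19 genes of that list 1 was separated upward (5.26%, against 11.0% of all genes) and 4 downward (21.1%, against 9.13%).

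Glutathione transferases and aldehyde dehydrogenases, which clear reactive compounds, stood higher in the organoids, with a list median of 1.54 in m5, 1.39 in m12 and 0.65 in m60. Of 35 tested genes 15 (42.9%, against 11.0% of all genes) had all organoids above and 1 (2.86%, against 9.13%) below. Leaving out 1 line gave 18 to 22 above, beside 21.0% to 23.8% of all genes. Gsta3 stood at 1.86, 8.38 and 7.99 CPM in 2D and 64.5, 540.1 and 42.9 CPM in 3D, and Gsta4, which takes lipid aldehydes, at 32.5, 32.6 and 43.2 CPM and 245, 848 and 141 CPM (3.08, SE 0.63). Gstm2 showed the tightest values, 36.6, 29.3 and 50.0 CPM in 2D and 131, 110.2 and 124 CPM in 3D (1.66, SE 0.25). Genes of the glutathione transferase families are near copies of each other, so reads may be shared between them. Aldh3a1 stood at 0.0792, 1.05 and 13.1 CPM in 2D and 27.9, 70.3 and 186 CPM in 3D (4.53, SE 0.43). Targets of the factor NRF2 in the list varied, with mean log2 differences of 1.96 for Slc7a11, 1.01 for Gclc, whose organoids all lay above the 2D cultures, 0.54 for Nqo1, 0.21 for Srxn1 and 0.033 for Gclm, all chosen after their values were seen. Hmox1 and Txnrd1, further targets, had negative means, with 105, 130.2 and 75.1 CPM of Hmox1 in 2D and 221, 26.4 and 76.2 CPM in 3D and 299, 496 and 383 CPM of Txnrd1 in 2D and 464, 447 and 189.8 CPM in 3D. The letters TGACNNNGC, the core of the element NRF2 binds, stood in 11.4% of the list's windows and 10.6% of all.

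Of the ATF4 and amino acid stress list 8 of 32 genes (25.0%, against 11.0% of all genes) were separated upward and 1 (3.12%, against 9.13%) downward. The upward count was 5 with TMM scaling and 6 with quantile normalization, beside 1171 and 1159 of all 11796 tested genes. Without m60 it was 19, beside 23.8% of all genes. The median was 0.74 in m5, 0.82 in m12 and -0.19 in m60, where 19 of the 32 genes were lower in 3D. Herpud1, of the protein folding response, stood at 59.1, 43.2 and 64.0 CPM in 2D and 123, 203 and 121 CPM in 3D. Cth, which makes cysteine, stood at 6.08, 6.62 and 5.39 CPM in 2D and 68.2, 78.1 and 6.79 CPM in 3D, near 2D levels in m60 alone. The amino acid transporter Slc7a5 did not follow, at 602, 417 and 288 CPM and 291, 559 and 71.8 CPM. Of the p53 list 7 of 28 genes (25.0%, against 11.0% of all genes) were separated upward and 3 (10.7%, near the 9.13% of all genes) downward. The upward count was 5 with TMM scaling or quantile normalization, beside 1171 and 1159 of all 11796 tested genes. The medians of the p53 list were 0.27 in m5, 1.06 in m12 and 0.09 in m60. In these lines 10, 8 and 13 of the 28 genes were lower in 3D, against 45.3%, 49.1% and 50.3% of all tested genes. Among those separated upward, Mdm4, an inhibitor of p53, stood at 52.2, 62.7 and 68.3 CPM in 2D and 109, 119 and 137 CPM in 3D (0.98, SE 0.21). Ephx1, an epoxide hydrolase, stood at 23.6, 17.7 and 24.4 CPM and 133, 261 and 67.2 CPM. Phlda3, a p53 target that restrains AKT, stood lower at 56.4, 76.3 and 64.9 CPM in 2D and 32.3, 46.1 and 36.4 CPM in 3D (-0.77, SE 0.23). Trp53, of which the mice carried 1 intact copy, stood at 179, 155 and 249 CPM in 2D and 138, 175 and 198 CPM in 3D and overlapped.

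Lysosomal genes were separated upward in 6 of 38 cases (15.8%, against 11.0% of all genes) and downward in 0 (9.13% of all genes). TMM scaling gave 4 upward and 1 downward, beside 1171 and 1183 of all 11796 tested genes. Without m12, whose list median was -0.74 beside 0.52 in m5 and 0.84 in m60, 16 lay above, beside 23.2% of all genes. Naglu, which degrades heparan sulfate, stood at 12.9, 8.21 and 13.5 CPM in 2D and 58.6, 31.6 and 45.7 CPM in 3D (1.87, SE 0.30), and Glb1, the lysosomal beta-galactosidase, at 46.2, 30.2 and 41.7 CPM and 84.8, 52.5 and 84.4 CPM. Lamp1, of the lysosomal membrane, stood at 683, 828 and 826 CPM and 584, 297 and 735 CPM. For sterol and fatty acid synthesis the lines parted, with medians of 0.30 in m5, 2.40 in m12 and -0.32 in m60. Here 6 of 37 genes (16.2%, against 11.0% of all genes) were separated upward and 0 downward (9.13% of all genes). Without m60 the upward count was 24, beside 23.8% of all genes. Acacb, the acetyl-CoA carboxylase that controls fatty acid oxidation, stood at 2.93, 5.35 and 7.80 CPM in 2D and 18.6, 22.9 and 32.4 CPM in 3D (2.05, SE 0.35), and Elovl6, a fatty acid elongase, at 39, 34.0 and 65.8 CPM and 89.0, 189 and 213 CPM. Both separated the cultures. Insig1, the sensor that holds back sterol synthesis, stood at 105, 13.5 and 57.7 CPM and 198, 163 and 69.0 CPM. It too was higher in each line, but its cultures overlapped.

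Acute phase and secreted defence genes were the list with the highest median, 2.45, yet 0 of its 16 tested genes were separated in either direction. The median was 2.73 in m5, -0.27 in m12 and 2.90 in m60. Saa3, a serum amyloid, stood at 0.515, 0.122 and 93.4 CPM in 2D and 156, 0 and 2866 CPM in 3D. Lcn2, the iron-siderophore binder lipocalin 2, stood at 0, 0.0733 and 130.3 CPM in 2D and 140.2, 69.8 and 1626 CPM in 3D, higher in each line. Cp, the copper-carrying ferroxidase ceruloplasmin, stood at 4.44, 6.86 and 229 CPM in 2D and 108, 105 and 1427 CPM in 3D (3.57, SE 0.40). For all 3 genes 2D m60 stood above the other 2D cultures and above at least 1 organoid of another line. Of 26 cytokine and chemokine genes 2 were separated upward (7.69%) and 1 downward (3.85%), below the 11.0% and 9.13% of all genes. The chemokines parted, with Cxcl16 at 6.18, 7.11 and 45.5 CPM in 2D and 33.8, 182 and 152 CPM in 3D and Cx3cl1 at 3.25, 18.3 and 64.9 CPM and 99.97, 58.6 and 275 CPM. Cxcl5, an attractant of neutrophils, stood at 0, 98.2 and 650.1 CPM and 249, 1048 and 3478 CPM. Chosen after their values were seen, Cxcl12, Ccl7 and Ccl2 had negative mean log2 differences of -3.58, -2.30 and -1.69. The myeloid growth factor Csf1 stood lower, at 662, 985 and 807 CPM in 2D and 323, 9.09 and 437 CPM in 3D, and every organoid lay below every 2D culture.

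Matrix and mesenchymal genes showed mainly the organoid labelled m12. The fibrillar matrix list had a median of -6.08 in m12 against -0.40 in m5 and 0.36 in m60, and the mesenchymal list -5.64 against 0.61 and 0.07. Of 40 matrix genes 5 were separated downward (12.5%, near the 9.13% of all genes) and 0 upward (11.0% of all genes). Without m12 8 lay below and 8 above, beside 21.9% and 23.2% of all genes. Col1a1, a chain of collagen I, stood at 5610.3, 5123 and 3830.5 CPM in 2D and 2201, 1.00 and 3632 CPM in 3D, and in m60 hardly differed. Col5a2, a chain of collagen V, stood at 3397, 905 and 426 CPM in 2D and 1.5, 0 and 149 CPM in 3D, low in m5 too. Lox, which cross-links collagen, stood at 1876, 466 and 465 CPM in 2D and 35.5, 0 and 267 CPM in 3D. The reverse held for epithelial junctions, whose median was 3.68 in m12, -0.88 in m5 and -0.23 in m60, with 0 of 30 genes separated in either direction. Dsp, which codes for desmoplakin, stood at 6.73, 0.684 and 3.80 CPM in 2D and 1.45, 542 and 1.25 CPM in 3D, and Krt8, a keratin of simple epithelium, at 273, 73.1 and 333 CPM and 270.4, 2576 and 211 CPM.

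Of 34 genes of basement membranes and integrins 2 were separated upward (5.88%) and 1 downward (2.94%), below the 11.0% and 9.13% of all genes, and these 3 are given here. Itgb1, the common beta chain of collagen and laminin receptors, stood at 1414, 1055 and 1105 CPM in 2D and 702, 480.1 and 724 CPM in 3D (-0.92, SE 0.28), every organoid below every 2D culture. Itga6, a laminin receptor chain, stood at 44.1, 54.2 and 40.4 CPM in 2D and 81.4, 286 and 114 CPM in 3D (1.57, SE 0.37), every organoid above. Col18a1, a collagen of basement membranes, stood at 14.9, 36.1 and 13.4 CPM and 58.8, 86.4 and 79.7 CPM (1.88, SE 0.35). The protease Adamts1 stood lower, at 332, 209 and 123 CPM in 2D and 32.0, 50.8 and 56.3 CPM in 3D. Mmp3, stromelysin 1, and Mmp13, collagenase 3, were among the largest differences of m5, with 0.772, 51.6 and 167 CPM of Mmp3 in 2D and 2155, 0 and 805 CPM in 3D and 2.18, 7.21 and 102 CPM of Mmp13 in 2D and 819, 0.167 and 443 CPM in 3D. They stood higher in m60 too and at or near 0 in 3D m12.

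Other lists had shares near or below those of all genes (11.0% upward, 9.13% downward). N-glycosylation had 4 of 44 genes separated upward (9.09%) and 3 downward (6.82%), and palmitoyltransferases and their reverse enzymes 3 of 26 (11.5%) and 2 (7.69%). Copper handling had 1 of 24 in each direction (4.17%), and the EGF receptor family 1 of 14 upward (7.14%) and 0 downward. Among them St6gal1, the sialyltransferase of N-glycans, stood at 43.1, 21.6 and 19.1 CPM in 2D and 77.4, 106 and 116 CPM in 3D (1.87, SE 0.43), and Zdhhc1, a palmitoyltransferase, at 6.44, 5.42 and 11 CPM and 17.4, 18.3 and 36.4 CPM (1.51, SE 0.34). Atp7b, a copper exporter, stood at 0.594, 0.586 and 0.824 CPM in 2D and 23.5, 46.2 and 2.94 CPM in 3D. Slc31a1, the copper importer that also lets in cisplatin, stood at 67.9, 27.0 and 50.4 CPM and 49.4, 93.4 and 58.6 CPM and overlapped. Egfr stood at 125, 222 and 111 CPM in 2D and 106, 77.7 and 145 CPM in 3D, and its ligand Tgfa at 0.931, 1.66 and 17.7 CPM and 34.6, 109 and 18.2 CPM. Igf1r, the IGF1 receptor, stood at 144, 79.6 and 75.4 CPM and 67.3, 38.4 and 90.8 CPM. Msln, the surface protein mesothelin, stood at 368, 13.9 and 109.6 CPM in 2D and 308, 647 and 64.8 CPM in 3D, and Ctnnb1, beta-catenin, at 775, 439 and 817 CPM and 491, 2064 and 992 CPM, each with overlapping cultures.

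**Figure D5:**
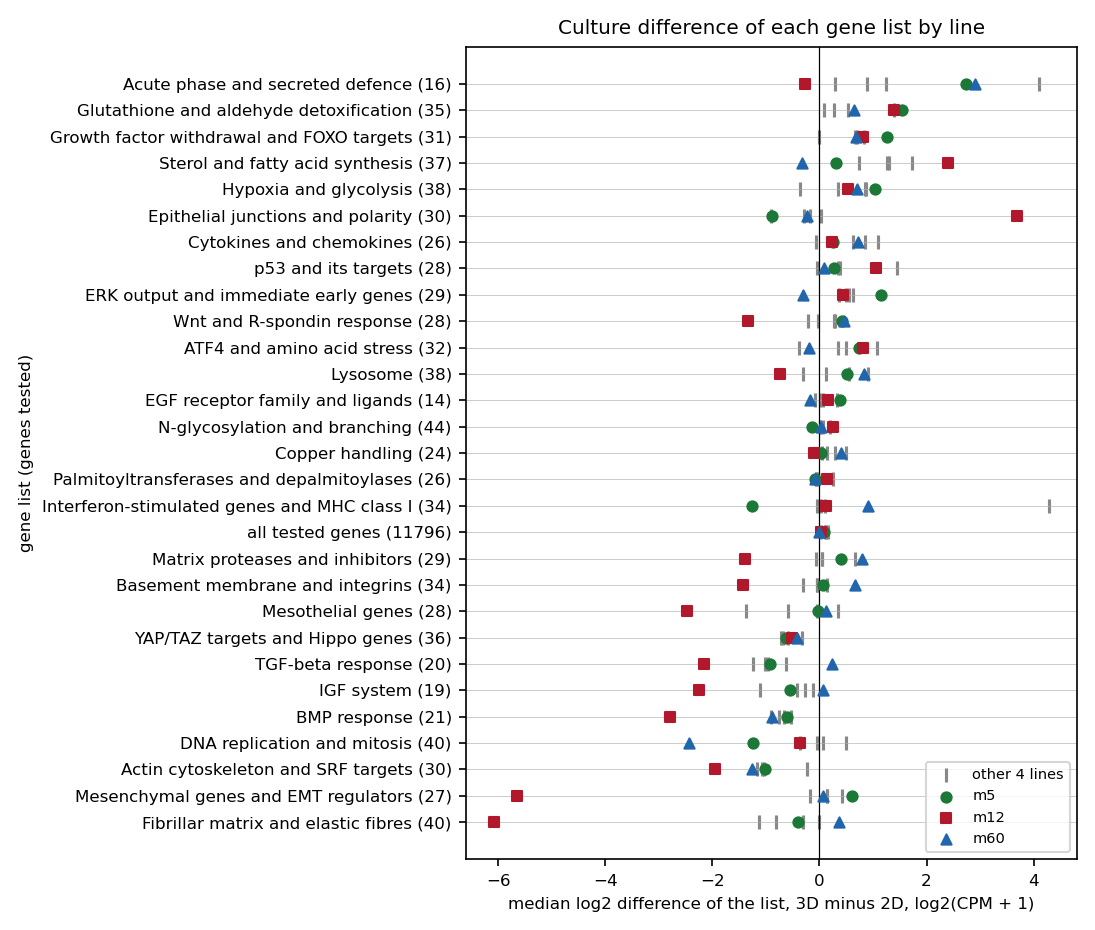
Median log2 difference, 3D minus 2D, of each gene list with 14 or more tested genes and of all 11796 genes, by line, with grey ticks for the other 4 lines. The actin list lies under 0 in all 7 lines, and of the 7 lines m60 and m5 have the lowest medians of the replication list. Line m12 stands far from the rest for the matrix (-6.08), mesenchymal (-5.64) and epithelial (3.68) lists.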

How the data were processed

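RNA was sequenced from 1 directional library per line and culture. According to the submitters' processing notes and the study's methods, the authors trimmed reads with Trim Galore 0.6.4, checked them with FastQC 0.10.0, aligned them with STAR 2.7.9a to GRCm39, counted them per gene with HTSeq 0.12.4 and deposited CPM of protein-coding genes (21884 genes). The table's p-value and q-value columns, deposited by the authors for their own comparison, were not used. In all 6 libraries 100% of CPM values were whole multiples of the value of 1 read (tolerance 0.001 read), so reads could be recovered for edgeR and DESeq2.

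Genes with at least 1 CPM in 3 or more of the 6 libraries were tested (11796). CPM were taken as log2(CPM + 1), so that differences of low genes are understated, and fitted with limma 3.58.1 (trended variances, R 4.3.3) with line as a block and culture as the effect, two-sided, with Benjamini-Hochberg adjustment and a threshold of 0.05. The block follows from the shared mouse of a line, although the deviation correlations were 0.04, -0.11 and 0.43 for m5, m12 and m60. A culture by line set interaction over 14 libraries compared the 3 lines with the other 4. Alternatives used edgeR 4.0.16, DESeq2 1.42.0, other pseudocounts, filters and scalings, no block, all 14 libraries and 1 line left out. The fits were tested on simulated data, which did not hold the mismatch of the libraries labelled m5 and m12. Genes are called separated where all 3 organoids lie outside the range of the 3 2D cultures on 1 side. The separated counts without a line and under other scalings, and the line comparison without m67 or against m28 and m54 alone, were added after the data were seen.

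The members and the 33 gene lists were chosen with earlier results of these data known. Genes named are those the study measured, the 15 largest differences in each direction by the smallest of the 3 line differences, up to 6 members of each list per direction by p, the 8 largest of each line per direction, and the 10 smallest p for the difference of the culture effect, besides cell type markers. Some genes that this rule names are not reported here.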

Additional observations from a re-analysis of the deposited data

Results flagged for a closer look

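For 7 genes named above all 3 lines were lower in 3D while all of the other 4 lines were higher, and the interaction term passed for 0 of them (limma, adjusted p = 0.696 for each). All 7 are among the 10 genes chosen for the smallest unadjusted p of that term, so the choice itself favoured this pattern. Only named genes were looked at. Over all 11796 tested genes, 671 (5.69%) had all 3 line differences below those of the other 4 lines, a wider criterion. The difference of the culture effect, 3 lines minus the other 4, was -2.14 for Slfn9, -2.09 for Fam111a, -2.0 for Uhrf1, -1.97 for Prim1, -1.83 for Timeless, -1.26 for Hspa14 and -1.13 for Exosc10, on the log2(CPM + 1) scale. With 3 libraries a group, single genes were not tested for 1 library far from the rest of its group.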

How the results depend on the processing

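The count of 0 genes past the threshold held under each pseudocount, filter and scaling tried, with edgeR on recovered reads, with all 14 libraries in the fit (smallest adjusted p = 0.0579) and with 1 line left out (0 to 0 genes, smallest adjusted p 0.252 to 0.720). DESeq2 was the exception, with 2140 genes, 1013 higher and 1127 lower. Without the replicate block, which ignores the pairing by line, 0 genes passed as well (smallest adjusted p = 0.0702), and the interaction with the other 4 lines gave 0 genes under each of its alternatives, with a smallest adjusted p of 0.0693 without m60. With 1 line left out the separated genes numbered 2479 to 2804 above and 2121 to 2588 below, by construction an easier criterion, and TMM or quantile scaling gave 1159 to 1171 above and 1115 to 1183 below.

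Of the named genes, 76 passed DESeq2's test, and none of them passed under the other alternatives. With 1 line left out the log2 difference turned sign for 18 genes. Without m12 it did so for Ccl2 (-2.68 to 0.228 over the lines left out), Gclm (-0.586 to 0.893), Ctnnb1 (-0.19 to 1.25), Dsp (-1.38 to 3.62), Egfr (-0.864 to 0.077), Hmox1 (-1.12 to 0.55), Krt8 (-0.33 to 2.55), Msln (-0.50 to 2.59), Pgam1 (-0.459 to 0.061), Slc31a1 (-0.12 to 0.984) and Wt1 (-3.70 to 0.076). Without m5 it did so for Gclm again, Nqo1 (-0.823 to 1.59), Srxn1 (-0.15 to 0.503), Mmp13 (-0.35 to 5.06), Mmp3 (-1.73 to 6.26), Tagln2 (-0.062 to 0.234) and Yap1 (-0.39 to 1.93), and without m60 for Txnrd1 (-0.58 to 0.24). Dsp also turned with edgeR (-0.29) and DESeq2 (-0.32), and Gclm with TMM scaling (-0.027). The cause was not tested.

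The mismatch of the libraries labelled m5 and m12 limits every value for those lines alone. It also limits every SE, every p of a fit with the line as a block, and every count or ranking by line differences. With 1 library per line and culture, 3 lines are the only measure of spread, and 3D m60 and 2D m60 were the least deeply sequenced of the 6.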
